A study of Mus musculus with 5 samples.

Results

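The 8 genes described here, Nos3, Klf2, Klf4, Cav1, Edn1, Nostrin, Gch1 and Ddah2, belong to the endothelial nitric oxide pathway and its control by blood flow. They were picked by name from the 16498 genes of a single-cell RNA table of the mouse aortic arch, and all 8 were present in it. The study asked what loss of Oasl1, an interferon-inducible member of the oligoadenylate synthetase-like family, does to the atherosclerotic aorta. It profiled Oasl1+/+Apoe-/- mice (called Apoe-/- below) in 2 libraries and Oasl1-/-Apoe-/- mice in 3 libraries, all on a C57BL/6 background and kept on a normal chow diet for 28 weeks. Every mouse in both groups therefore lacked Apoe, the apolipoprotein whose loss raises plasma cholesterol, and the Oasl1 allele lacked its promoter and exon 2 in every cell of the body. Cells came from pooled mice (n = 6, without a statement of whether that is per library or per group), were sorted as live cells from the aortic root to the arch, and were sequenced from the 3′ end of their transcripts.

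Nitric oxide is made in endothelial cells (ECs) by the synthase encoded by Nos3, diffuses into the neighbouring smooth muscle and relaxes it through cyclic GMP. Steady laminar flow over the endothelium raises the transcription factors KLF2 and KLF4 through a kinase route that ends at MEF2 factors, and KLF2 in turn raises Nos3 and lowers Edn1, the gene of the vasoconstrictor peptide endothelin-1. Other members set how much active enzyme there is: Gch1 encodes the rate-limiting enzyme for the synthase's cofactor tetrahydrobiopterin, Ddah2 belongs to the family linked to removal of asymmetric dimethylarginine (an inhibitor of the synthase), and caveolin-1 (Cav1) and nostrin bind the synthase and hold it inactive or move it from the membrane.

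The 250 bases before the transcription start are printed for the pair of flow-responsive factors and for Edn1, because their levels carried most of the group differences below. They were taken from RefSeq on GRCm38.p6, where 7 of the 8 members were matched, and are written 5′ to 3′ on the strand of the gene. Capitals mark matches, on either strand, to 4 patterns in which N stands for any base. They are CACCC (the core that KLF factors bind), CTANNNNTAG (a pattern for the MEF2 core), TGANTCA (a pattern for the AP-1 core) and GAGACC (a core described as responsive to shear stress). Klf2 lies at chr8:72318812-72319061 on the plus strand, Klf4 at chr4:55532476-55532725 on the minus strand, and Edn1 at chr13:42301226-42301475 on the plus strand.
Klf2: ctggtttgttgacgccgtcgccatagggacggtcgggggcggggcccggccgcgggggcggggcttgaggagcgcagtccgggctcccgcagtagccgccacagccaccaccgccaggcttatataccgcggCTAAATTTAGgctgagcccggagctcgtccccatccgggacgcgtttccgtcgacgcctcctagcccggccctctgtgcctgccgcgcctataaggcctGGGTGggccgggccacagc
Klf4: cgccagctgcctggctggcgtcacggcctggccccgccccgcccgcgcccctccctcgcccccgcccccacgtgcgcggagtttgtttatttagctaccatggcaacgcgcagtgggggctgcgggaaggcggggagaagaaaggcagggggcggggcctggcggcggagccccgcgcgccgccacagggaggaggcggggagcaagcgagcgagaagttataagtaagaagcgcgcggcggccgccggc
Edn1: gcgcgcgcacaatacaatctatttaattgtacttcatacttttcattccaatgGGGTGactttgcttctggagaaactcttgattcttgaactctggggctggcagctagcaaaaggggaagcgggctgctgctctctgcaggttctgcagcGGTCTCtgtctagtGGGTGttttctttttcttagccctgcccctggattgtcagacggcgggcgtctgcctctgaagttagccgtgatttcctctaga
The Klf2 window held the MEF2 pattern with its first base 118 bases before the start, and CACCC on the opposite strand 19 bases before it. Of 32851 mouse promoter windows of the same length, 3.2% held CTANNNNTAG and 52.0% held CACCC. In the Edn1 window CACCC was found on the opposite strand 197 and 84 bases before the start, and GAGACC 98 bases before it, a core present in 13.7% of all windows. The Klf4 window, of which 74.0% was G or C, held none of the 4 patterns. TGANTCA, found in 6.75% of all windows, was in none of the members' windows. A match of this kind is a description of letters and not evidence of a bound site. GENCODE starts Klf2 at position 72319033, inside the end of its window. Nos3 itself spans chr5:24364810-24384474 in GENCODE, and its exons overlap those of Atg9b on the other strand.

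The 5 libraries held 3212 to 4338 cells each, 18260 in all, with a median of 4495 to 5186.5 transcript tags (unique molecular identifiers, UMIs) per cell. Levels are given as the mean over cells of UMIs per 10000 UMIs of the cell (CP10K), and library values are listed with the Apoe-/- libraries first. Group differences are on the scale of log2(mean CP10K + 0.05), labelled Oasl1-/-Apoe-/- minus Apoe-/-, from limma with Benjamini-Hochberg adjustment over all genes tested, and an adjusted p under 0.05 is said to pass. Nothing shows that the libraries of a group came from separate mice, so a p-value measures the spread between libraries, which may be technical. For Oasl1 itself 27 and 16 UMIs were found in Apoe-/- libraries, and 299, 257 and 315 in those labelled Oasl1-/-Apoe-/-. The rise was also present per cell: macrophages had a mean of 0.0706 CP10K in Apoe-/- and 0.647 in labelled libraries (limma, adjusted p = 7.05e-09). ECs held only 14 Oasl1 UMIs in 1421 cells. The deleted part is not the 3′ end from which tags are read, and the tags were not mapped within the gene. These counts therefore do not check the label, and why they were higher with the promoter deleted was not tested. The libraries are called by their label throughout. Pairs of libraries shared 6 to 22 cell barcodes, at most 0.685% of the smaller library.

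Averaged over all cells of a library, all 8 members differed between the groups, 6 lower and 2 higher in the labelled libraries, against a background in which 41.1% of all 9836 genes tested passed (20.6% lower and 20.5% higher) and 62.3% had groups that did not overlap. Nos3 stood at 0.217 and 0.212 CP10K in the Apoe-/- libraries and at 0.162, 0.171 and 0.148 in the libraries labelled Oasl1-/-Apoe-/-. Every labelled library was below both Apoe-/- libraries, and the log2 difference was -0.33 ± 0.072 (SE; adjusted p = 0.0044). Klf2 had 14.8 and 14.4 CP10K against 11, 10.5 and 10.6 (log2 difference -0.44 ± 0.042, adjusted p = 1.65e-05), again with no overlap. Edn1 fell by 0.68 ± 0.081 (SE), from 0.718 and 0.597 CP10K to 0.380, 0.422 and 0.373 (adjusted p = 9.05e-05). Gch1 rose, from 0.300 and 0.274 to 0.517, 0.584 and 0.542 CP10K (log2 difference 0.83 ± 0.068, adjusted p = 6.06e-06). Nostrin, with only 68 and 73 UMIs against 171, 143 and 147, rose by 0.70 ± 0.078 (adjusted p = 5.42e-05). Klf4, Cav1 and Ddah2 fell by 0.24, 0.37 and 0.32.

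The libraries also differed in which cells they held. ECs made up 9.07% and 8.76% of Apoe-/- cells and 6.87%, 7.32% and 6.26% of labelled cells. Smooth muscle cells (SMCs) were 67.39% and 69.11% against 47.56%, 46.73% and 46.81%, and macrophages 7.36% and 7.08% against 17.4%, 17.3% and 19.1%. Cells left unnamed, at 3.997% and 3.942% against 6.492%, 5.729% and 5.05%, are not counted as macrophages, though many carried macrophage markers. When every library was given the same share of each cell type, the Nos3 difference was -0.06 (adjusted p = 0.609), Cav1 stood at 0.04 (adjusted p = 0.655), Ddah2 at -0.11 (adjusted p = 0.291), Klf4 at -0.16 (adjusted p = 0.0575) and nostrin at 0.24 (adjusted p = 0.0926), none of them past the threshold. Klf2 (-0.25, adjusted p = 0.00332), Edn1 (-0.39, adjusted p = 0.00455) and Gch1 (0.30, adjusted p = 0.0133) still passed, while the number of genes past the threshold went from 4045 to 1060.

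To see which cells carried each member, levels were compared across the cell types rebuilt from clusters and named by fixed markers. The clusters were made without the 8 members. Values below are means ± SD over the 5 libraries, and since both groups enter, they describe the tissue and not a contrast. Lymphatic ECs are the exception, as all 28 came from the 3 labelled libraries. The cartilage values include Apoe-/- libraries with only 4 and 1 of these cells. Nos3 stood at 2.16 ± 0.063 CP10K in ECs, which held 86.4% of its UMIs. Edn1 was likewise mostly endothelial, at 5.37 ± 1.07 CP10K and with 78.7% of its UMIs in ECs. Per library, 40.8% to 49.0% of ECs had a Nos3 UMI at a median depth of 2728 to 3551.5 UMIs, against 0.2% to 0.5% of SMCs at 4659 to 5229 UMIs, a type not known to make Nos3. Outside the endothelium, cells left unnamed (0.0211 CP10K, 5 UMIs), dendritic cells (0.0198, 5 UMIs), monocytes (0.0091, 3 UMIs) and cartilage cells (0.0071, 1 UMI) stood above SMCs. The values of fibroblasts, macrophages and NK/T cells, all below the 0.0069 CP10K of SMCs, were read as background. The 28 lymphatic ECs stood at 1.26 CP10K. A group of 119 cells from the endothelial clusters, called mixed endothelial cells here, stood at 1.05 CP10K. It joined a sub-cluster of 79 cells named from SMC markers and a sub-cluster of 40 cells named from macrophage markers. Taken cell by cell on fixed markers, 56 of the 119 counted as SMCs and 45 as ECs. Neither these types nor 56 cycling cells (0.292) are covered by that reading.

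Klf2, Klf4 and Cav1 were highest or near highest in endothelium but most of their UMIs came from SMCs, the most numerous type. Klf2 was at 40.1 ± 1.4 CP10K in ECs, followed by lymphatic ECs (26.6), B cells (24.8), the mixed endothelial cells (21.8) and neutrophils (19.7). Next came cartilage cells (16.9), fibroblasts (12.2), SMCs (11.6), NK/T cells (11.2) and cycling cells (10.2). Macrophages (4.03), dendritic cells (3.80) and monocytes (2.68) came after these. Lymphatic ECs, B cells and neutrophils differed by less than the SDs of B cells and neutrophils (8.03 and 9.46). The levels of fibroblasts, SMCs and NK/T cells differed by less than their SDs (3.43, 1.80 and 2.37), as did those of macrophages and dendritic cells (0.829 and 1.07). Of its UMIs 18.5% were in ECs and 61.2% in SMCs. Klf4 stood at 11.2 CP10K in the few lymphatic ECs (28 cells in the 3 labelled libraries) and at 9.93 ± 0.506 in ECs. It was at 7.44 in the mixed endothelial cells, 7.29 in cartilage cells, 6.62 in fibroblasts, 4.14 in monocytes and 3.99 in SMCs. Dendritic cells had 3.45, macrophages 2.53, cycling cells 2.50, B cells 2.04, NK/T cells 1.10 and neutrophils 0.191. Cav1, the coat protein of caveolae, was at 11.9 ± 0.598 CP10K in ECs, 3.93 in SMCs (71.5% of its UMIs) and 1.08 in fibroblasts.

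Nostrin and Gch1 had most of their UMIs outside ECs. Nostrin had 11 UMIs in ECs among 602 in all libraries, a level of 0.030 CP10K. Macrophages stood at 0.257 CP10K and held 68.9% of its UMIs, and dendritic cells stood at 0.297. Cells left unnamed, many of which carried macrophage markers, stood at 0.151 and held 12.3%. Between 0.495% and 1.05% of ECs had a nostrin UMI, against 0% to 0.2% of SMCs and 12.7% to 18.3% of macrophages. Gch1 ran from 2.74 CP10K in neutrophils, 2.27 in monocytes and 2.09 in B cells to 1.4 in NK/T cells, 0.948 in macrophages, 0.403 in ECs and 0.0628 in SMCs. Macrophages held 38.7% of Gch1 UMIs and ECs 6.81%. Ddah2 was at 1.5 CP10K in ECs and 1.26 in fibroblasts, which differed by less than the SD of either (0.269 and 0.349), and at 0.765 in SMCs, which held 69.3% of its UMIs.

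**Figure D1:**
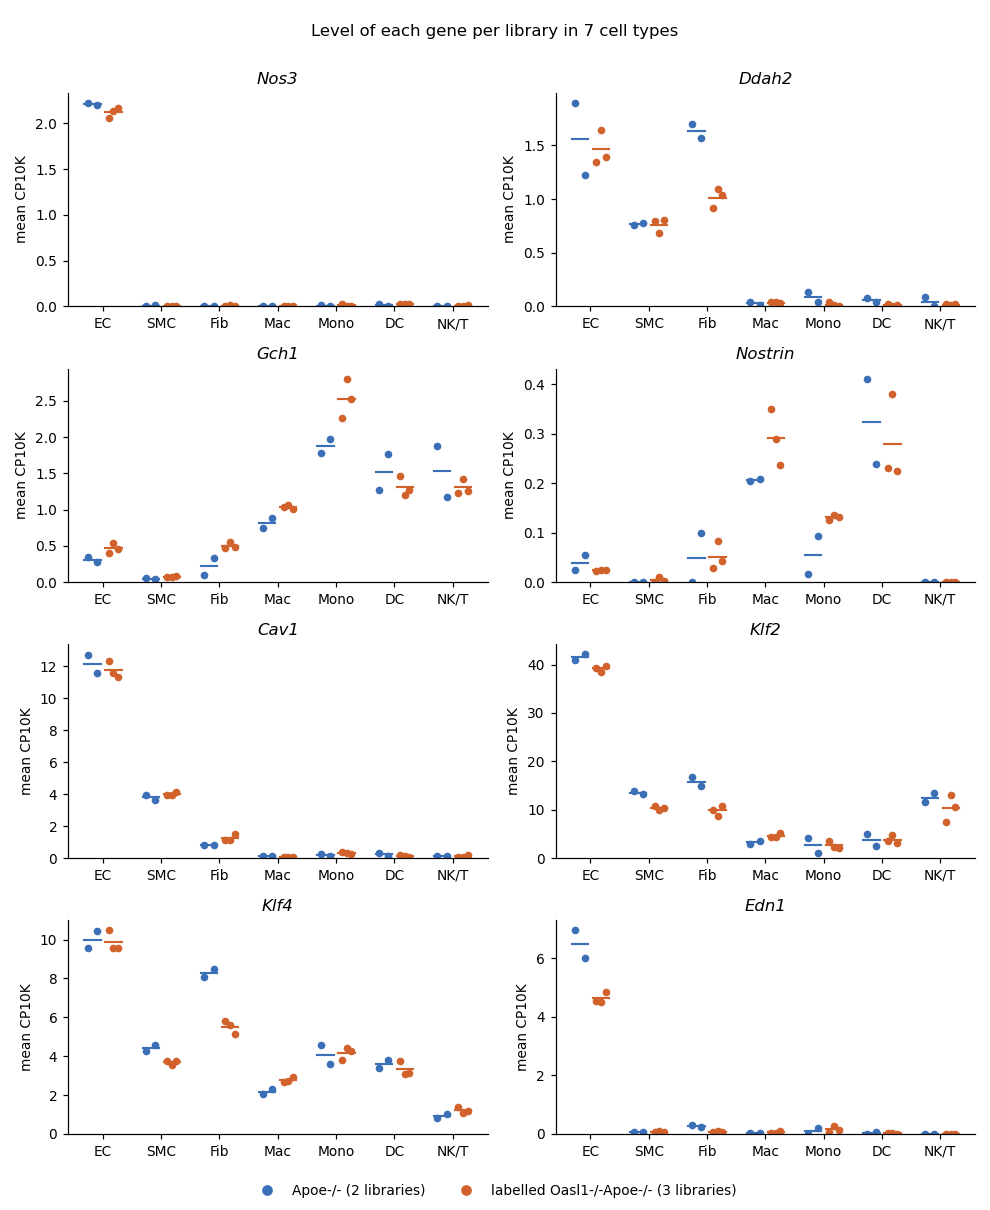
Mean level of each of the 8 genes (CP10K, from 0, with a scale of its own per gene) in 7 cell types, with 1 point per library, 1 colour per group and a bar at the group mean. EC, endothelial cells; SMC, smooth muscle cells; Fib, fibroblasts; Mac, macrophages; Mono, monocytes; DC, dendritic cells; NK/T, natural killer and T cells. Nos3 and Edn1 sit highest in ECs (2.16 and 5.37 CP10K), Nostrin and Gch1 in leukocyte types.

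Genes whose pattern over the 35 cell type by library profiles was most like that of a member were named by Pearson correlation among 9768 genes, as a description, since profiles share libraries and depth. For Nos3 they included Ptprr (r = 0.9936), Sox18 (0.9934), an endothelial transcription factor, Bcl6b (0.9928) and Lrrc3b (0.992). For Klf2 the closest were Txnip (r = 0.9424), Fam174b (0.926), Arl4d (0.9165), Yes1 (0.9135) and Sept4 (0.9118). For Klf4 they were Plscr3 (r = 0.9091), Ndrg1 (0.8986), Sulf2 (0.893), Gabarapl1 (0.888) and Thbd (0.8878), the last encoding thrombomodulin, an anticoagulant receptor of ECs.

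Within ECs the synthase gene did not pass the test. Nos3 was at 2.22 and 2.20 CP10K in the Apoe-/- libraries and at 2.06, 2.13 and 2.17 in the labelled ones, from 236, 245, 173, 188 and 175 UMIs. The labelled libraries were all lower, but by a log2 difference of -0.06 whose 95% interval ran from -0.31 to 0.19 (adjusted p = 0.92). ECs with at least 1000 UMIs were thinned at random to 1000, and shallower ECs were left out. Of the thinned ECs, 20.2% ± 0.0419 (SD, n = 2) had a Nos3 UMI in Apoe-/- libraries and 18.9% ± 0.959 (SD, n = 3) in labelled ones. An exact permutation test gave a two-sided p = 0.2. That is the smallest value this test, which doubles the one-sided p, can give for 2 against 3 libraries. Without thinning these shares were 42.3% and 47.5%, in the opposite order, and ECs of the labelled libraries were the deeper ones (median of 3389, 3445 and 3551.5 UMIs against 2728 and 2766).

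Neither flow-responsive factor passed the test in ECs. Klf2 stood at 40.9 and 42.1 CP10K in Apoe-/- ECs and at 39.4, 38.5 and 39.7 in labelled ECs (log2 difference -0.08, 95% interval -0.21 to 0.04, adjusted p = 0.683). Klf4 was at 9.55 and 10.5 against 10.5, 9.59 and 9.54 CP10K (log2 difference -0.02, 95% interval -0.19 to 0.15, adjusted p = 0.971). The Klf4 groups overlapped and the Klf2 groups did not, and in either case the interval left out changes as large as those found for the same gene in fibroblasts below.

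Edn1 was the exception among the 7 members tested in ECs, where 2.94% of all 9430 genes passed (0.891% lower) and 27.3% had groups that did not overlap. It stood at 6.95 and 6.02 CP10K in the Apoe-/- libraries and at 4.56, 4.51 and 4.83 in the labelled ones, a fall by 0.48 ± 0.099 (SE, 95% interval -0.68 to -0.28, adjusted p = 0.00114). All 3 labelled libraries were below both others. Of the thinned ECs, 37.5% ± 3.94 (SD, n = 2) in Apoe-/- and 24.5% ± 3.96 (SD, n = 3) in labelled libraries had an Edn1 UMI (exact permutation test, two-sided p = 0.2). The call was lost without Apoe-/- replicate 1 (log2 difference -0.37, adjusted p = 0.0679).

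Blood markers moved with the Edn1 result. The 5 erythroid markers summed to 38.3 and 3.92 CP10K in Apoe-/- ECs and to 0.371, 0.622 and 0.488 in labelled ECs, with Hbb-bs, a beta globin gene, the largest in each library. In the Apoe-/- libraries 157 and 172 ECs had a haemoglobin UMI, against 31, 44 and 37. Among ECs with none, Edn1 was at 6.19 and 5.69 against 4.64, 4.72 and 5.37 CP10K, so the groups still did not overlap but the difference shrank to -0.27 (adjusted p = 0.269). In ECs with a haemoglobin UMI, Edn1 was at 7.99 and 6.42 against 4.03, 3.62 and 2.40 CP10K. The part of these transcripts in the Edn1 difference was not tested further.

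The cofactor and inhibitor genes did not pass in ECs. Gch1 rested on 48 and 38 UMIs against 50, 58 and 59, at 0.343 and 0.275 against 0.402, 0.535 and 0.458 CP10K (log2 difference 0.52, 95% interval 0.07 to 0.97, adjusted p = 0.293). The labelled libraries were all higher, and so were the 8 macrophage markers summed in ECs, at 0.274 and 0.332 against 0.772, 1.53 and 0.782 CP10K, with Adgre1 and Mrc1 at or near 0. Ddah2 was at 1.90 and 1.22 against 1.35, 1.65 and 1.39 CP10K (log2 difference -0.06, adjusted p = 0.932), and Cav1 at 12.7 and 11.6 against 12.3, 11.6 and 11.3 (-0.05, adjusted p = 0.893). Both overlapped between the groups. Nostrin was too low to be tested, with 2 and 4 UMIs against 2, 2 and 1. The median log2 difference of the 7 members tested was -0.06 in ECs, beside -0.01 over all genes.

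**Figure D2:**
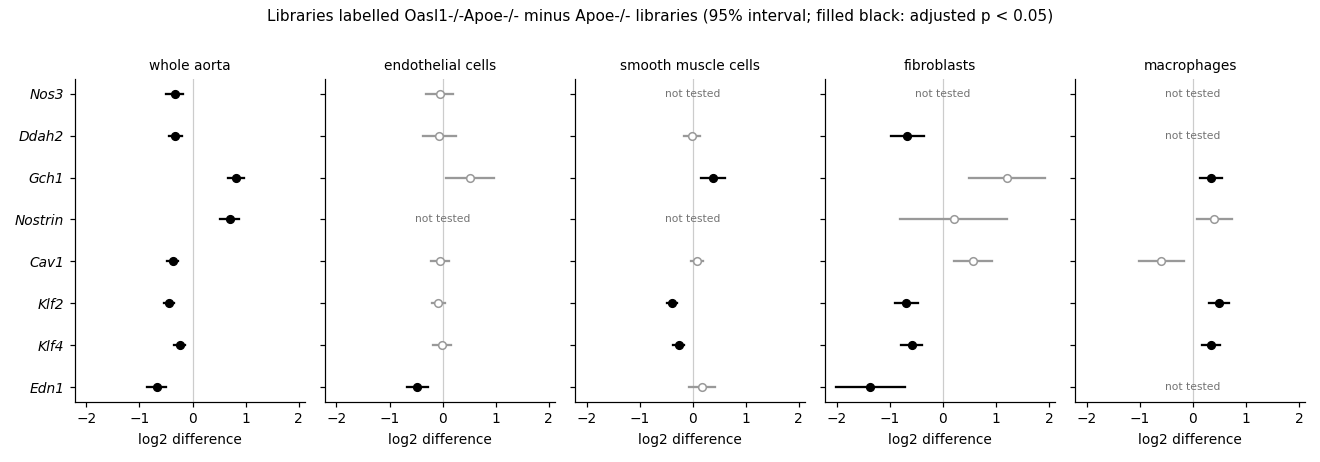
Log2 difference (labelled Oasl1-/-Apoe-/- minus Apoe-/-) of each tested member in each cell type, with its 95% interval from limma and filled points past the threshold. In the whole aorta all 8 members passed, in ECs only Edn1 (-0.48), while Klf2 and Klf4 fell in SMCs and fibroblasts and rose in macrophages.

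ECs were further divided into 8 subsets, by clustering that left out the members. The largest was the aortic subset of 333 cells, named from Stmn2, Adh7 and other fixed markers. A Plvap/Selp subset of 214 cells and a capillary-like subset of 20 cells were also named. The other 5 are called by leading genes: Gadd45b/Atf3 (296 cells), Gdf6/Sfrp2 (184), Pla2g5/Plat (151), Nppc (107), and Mmp3/Col1a1 (116), the last led by Ccl2 and genes of stromal cells. The Mmp3/Col1a1 subset carried 4 SMC, 4 fibroblast and 2 macrophage markers. Its cells had a median of 1.64 times the median UMIs of their library, against 0.454 to 0.911 in the other subsets. It held 18 Gch1 UMIs in Apoe-/- and 68 in labelled libraries. Whether these were mixed cells was not tested. The mix of subsets differed between the groups. The Gdf6/Sfrp2 subset had 67 and 59 cells in Apoe-/- libraries and 21, 21 and 16 in labelled ones, and the Mmp3/Col1a1 subset 14 and 13 against 25, 37 and 27. Over all ECs the 7 fibroblast markers summed to 9.20 and 8.50 CP10K against 13.8, 19.9 and 20.7 (most of it Dcn), and the 9 endothelial markers to 90.7 and 88.6 against 84.0, 82.5 and 85.6.

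Nos3 levels ranged from 0.482 to 6.46 CP10K over the 7 larger subsets and the libraries. In the aortic subset it was at 2.99 and 2.07 CP10K in Apoe-/- libraries and at 3.64, 3.0 and 3.13 in labelled ones, in the Nppc subset at 3.21 and 6.46 against 5.40, 3.53 and 2.96, and in the Mmp3/Col1a1 subset at 0.594 and 0.482 against 0.738, 0.594 and 0.586. In the aortic subset the lowest labelled library (3.0) and the highest Apoe-/- library (2.99) were thus all but equal. The difference of 0.38 there had an adjusted p of 0.998 in limma. With the same share of each subset in every library, Nos3 stood at 0.13 on the log2 scale (adjusted p = 0.871).

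In 3 subsets Edn1 was lower in every labelled library than in both Apoe-/- libraries. The groups did not overlap for 20% of all genes in the aortic subset, 18.8% in the Gdf6/Sfrp2 subset and 20.2% in the Gadd45b/Atf3 subset. In the aortic subset it went from 6.83 and 6.16 to 3.79, 2.98 and 3.63 CP10K, a log2 difference of -0.90 (adjusted p = 0.00435), in a fit in which 0.387% of all genes passed. The Gdf6/Sfrp2 subset stood at 12.2 and 10.4 against 5.13, 7.46 and 5.99 CP10K, and the Gadd45b/Atf3 subset at 6.56 and 7.36 against 4.34, 5.0 and 5.58. The Plvap/Selp subset showed no such gap, at 7.12 and 7.42 against 8.21, 7.35 and 7.56, nor did the Pla2g5/Plat and Mmp3/Col1a1 subsets, and in the Nppc subset Edn1 stayed under 1 CP10K in every library. Hbb-bs was among the leading genes of the Gdf6/Sfrp2 subset. Whether the Edn1 difference itself differed between subsets was not tested. With equal subset shares the difference in all ECs was -0.49 (adjusted p = 0.00203).

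Klf2 and Klf4 were higher in the labelled libraries in the Gdf6/Sfrp2 subset, with Klf2 at 28.9 and 29.8 against 47.6, 37.1 and 36.9 CP10K and Klf4 at 5.80 and 6.13 against 13.2, 10.0 and 12.5. Klf2 was lower in every labelled library in the Pla2g5/Plat subset, at 49.5 and 52.8 against 40.6, 41 and 45.6, and Klf4 in the Mmp3/Col1a1 subset, at 7.21 and 6.3 against 5.91, 3.41 and 6.23. In the aortic subset Klf2 overlapped, at 45.9 and 47.5 against 45.7, 46.5 and 44.0. In the Gadd45b/Atf3 subset Klf4 was at 13.4 and 14.1 against 16.6, 15.9 and 13.9, which overlapped. Groups that did not overlap were found for 18.9% of all genes in the Pla2g5/Plat subset and 25.2% in the Mmp3/Col1a1 subset. These subset values are given without a test. Labelled libraries had only 16 to 21 cells in the Gdf6/Sfrp2 subset.

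**Figure D3:**
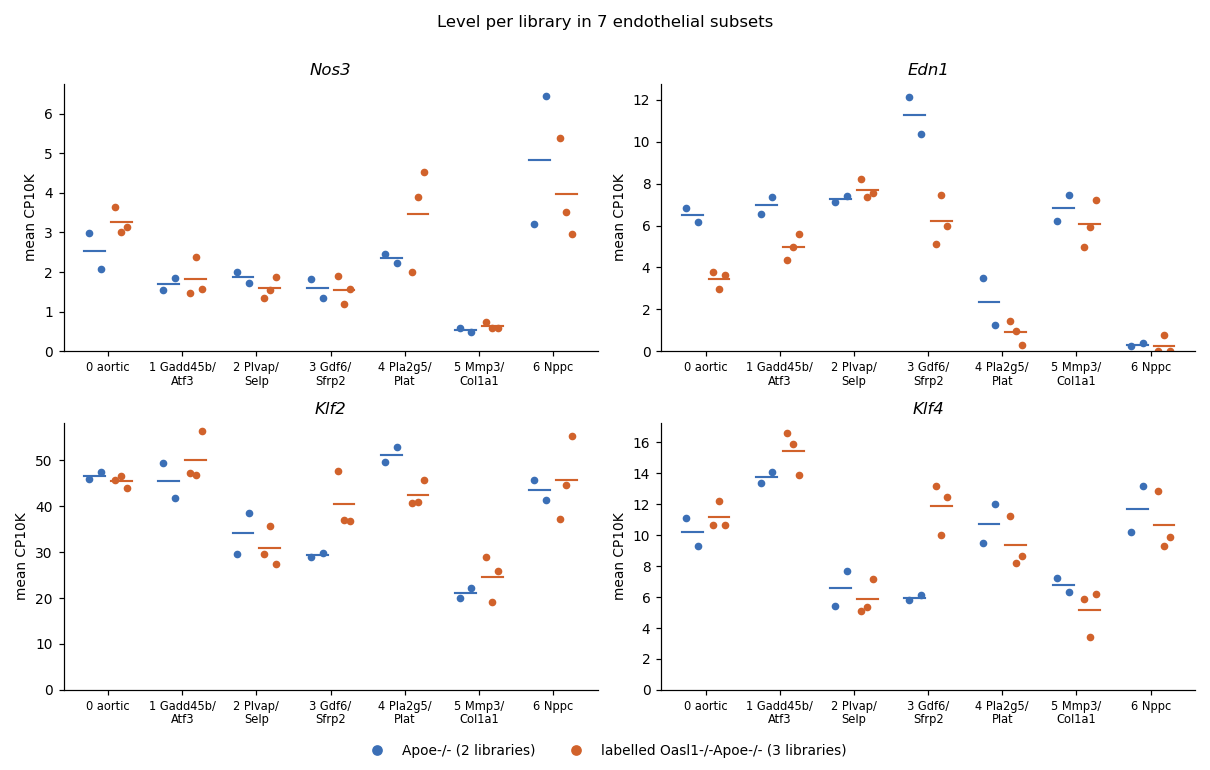
Mean level (CP10K) of Nos3, Edn1, Klf2 and Klf4 in each endothelial subset, with 1 point per library, 1 colour per group and a bar at the group mean, with subsets named by number and leading genes and the 20 capillary-like cells left out. Edn1 is lower in all 3 labelled libraries in the aortic subset (2.98 to 3.79 against 6.16 and 6.83) but not in the Plvap/Selp subset.

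Outside the endothelium Klf2 and Klf4 differed between the groups. In SMCs, where 8% of all genes passed (5.46% higher and 2.54% lower) and 38.3% had groups that did not overlap, Klf2 stood at 13.8 and 13.2 CP10K in Apoe-/- libraries and at 10.8, 9.86 and 10.3 in labelled ones, a fall by 0.39 ± 0.047 (SE, adjusted p = 3.61e-05). Klf4 went from 4.28 and 4.59 to 3.74, 3.56 and 3.78 CP10K, a fall by 0.26 ± 0.050 (SE, adjusted p = 0.0031). For both genes every labelled library was below every Apoe-/- library. The falls were also found with equal shares of the SMC clusters (-0.40, adjusted p = 3.76e-05, and -0.32, adjusted p = 0.000662), and passed with any 1 library left out.

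The falls were seen across most SMC clusters. In the largest, cluster 0 (1071 and 1248 cells against 553, 511 and 472), Klf2 was at 12.5 and 12.1 against 9.29, 7.57 and 7.57 CP10K and Klf4 at 3.58 and 3.88 against 2.83, 2.63 and 2.52. In cluster 1 Klf2 was at 15.4 and 14.9 against 11.2, 11.2 and 12.2, and Klf4 at 4.48 and 5.06 against 3.89, 3.32 and 3.99. Cluster 2 differed less, with Klf2 at 14.3 and 13.0 against 12.3, 12.3 and 11.9, and Klf4 at 5.13 and 5.35 against 4.74, 4.93 and 4.94. Klf2 overlapped between the groups only in cluster 5 (13.0 and 11.6 against 12, 9.70 and 9.81), and Klf4 only in cluster 11 (3.50 and 3.93 against 2.66, 3.69 and 2.54). The share of all genes without overlap was not computed for single SMC clusters, and over all SMCs it was 38.3%. The 18 immediate early and dissociation genes, which respond within minutes to handling of cells, summed to 214 and 209 against 210, 207 and 209 CP10K in SMCs, with 3 higher and 4 lower past the threshold.

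In fibroblasts both factors fell as well, in a type where 4.01% of genes passed (1.76% lower) and 35.5% did not overlap. Klf2 was at 16.8 and 14.8 CP10K against 9.95, 8.70 and 10.8, a fall by 0.69 ± 0.10 (SE, adjusted p = 0.00299). Klf4 was at 8.10 and 8.47 against 5.79, 5.60 and 5.14, a fall by 0.58 ± 0.092 (SE, adjusted p = 0.004). Neither gene overlapped between the groups. The Prg4/Lum cluster held 46 of 98 and 52 of 101 fibroblasts in Apoe-/- libraries and 174 of 255, 174 of 280 and 181 of 273 in labelled ones. With equal cluster shares both falls passed, at -0.59 for Klf2 (adjusted p = 0.00528) and -0.43 for Klf4 (adjusted p = 0.0271). In the Dpt/Pi16 cluster Klf2 was at 19.1 and 20.2 against 12.4, 8.84 and 13.2 and Klf4 at 10.7 and 10.9 against 8.63, 7.86 and 6.88. In the Prg4/Lum cluster Klf2 was at 14.1 and 9.81 against 8.80, 8.61 and 9.63 and Klf4 at 5.14 and 6.20 against 4.47, 4.22 and 4.25, with the lowest Apoe-/- value just above the highest labelled one.

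In fibroblasts the immediate early list moved the same way, summing to 214 and 214 against 183, 187 and 186 CP10K with 1 gene higher and 6 lower, and its part in the Klf differences was not tested. Labelled fibroblasts were also deeper, with median UMIs of 7119, 6775 and 7349 against 4018.5 and 4790. When fibroblasts were instead taken by marker gate, neither fall passed (Klf2 -0.47, adjusted p = 0.0916, and Klf4 -0.41, adjusted p = 0.0944). Of 1007 cells in the fibroblast clusters, 517 had gated as fibroblasts and 307 as SMCs. The Prg4/Lum cluster, with 627 of these cells, was named from 4 fibroblast markers. The name fibroblasts therefore covers a mixed class here.

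In macrophages both factors rose. There 17.1% of all genes passed (8.8% higher) and 43.7% did not overlap. Klf2 stood at 2.97 and 3.50 CP10K against 4.26, 4.30 and 5.13, a log2 difference of 0.49 ± 0.090 (SE, adjusted p = 0.00134), and Klf4 at 2.04 and 2.31 against 2.66, 2.72 and 2.91 (0.34 ± 0.077, adjusted p = 0.00687). Labelled libraries were all higher. The immediate early list in macrophages summed to 130 and 131 against 169, 172 and 169 CP10K, with 13 genes higher and 2 lower, and its part in these rises was not tested.

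The rise went with a change in which macrophage clusters filled the class. Cluster 3 had 116 and 113 cells in Apoe-/- libraries and 424, 408 and 446 in labelled ones, and in it Klf2 overlapped between the groups at 4.91 and 5.93 against 4.71, 4.63 and 5.91 CP10K. Cluster 6 had 184 and 194 against 167, 149 and 172 cells, and there Klf2 was at 1.75 and 2.09 against 3.11, 3.39 and 3.12 and Klf4 at 1.72 and 1.71 against 1.99, 2.32 and 2.29. With equal cluster shares neither rise passed (Klf2 0.12, adjusted p = 0.488, and Klf4 0.13, adjusted p = 0.428).

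**Figure D4:**
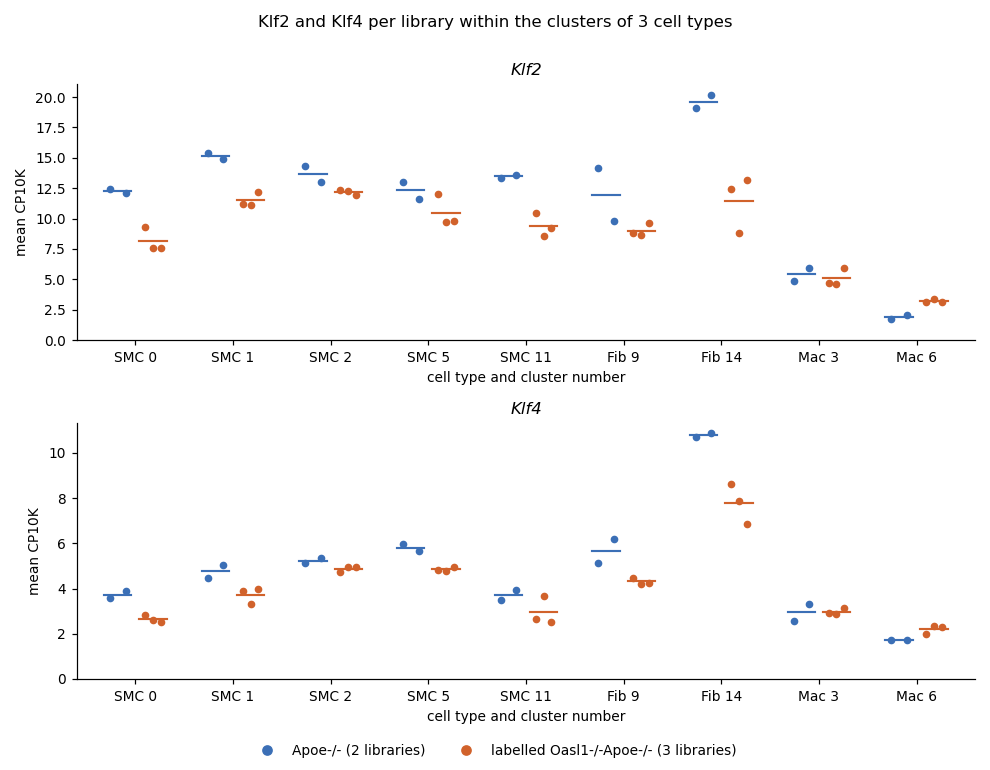
Mean level (CP10K) of Klf2 and Klf4 in each cluster of SMCs, fibroblasts (Fib; 9 is Prg4/Lum and 14 is Dpt/Pi16) and macrophages (Mac), with 1 point per library, 1 colour per group and a bar at the group mean. Labelled libraries lie below Apoe-/- libraries in SMC cluster 0 (Klf2 7.57 to 9.29 against 12.1 and 12.5) and above them in macrophage cluster 6.

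Whether the group difference itself differed between cell types was tested as an interaction. For ECs against SMCs, ECs against macrophages and ECs against fibroblasts no member passed in limma, and 0.0608%, 0.14% and 0% of all genes did. At an unadjusted p under 0.05 there were 1 of 6, 1 of 4 and 4 of 6 members, where 8.49%, 13.7% and 9.70% of all genes did so. ECs minus fibroblasts gave 0.60 for Klf2 (95% interval 0.04 to 1.17, adjusted p = 0.493) and 0.57 for Klf4 (0.05 to 1.09, adjusted p = 0.488). ECs minus SMCs gave 0.31 for Klf2 and 0.24 for Klf4, and ECs minus macrophages -0.57 and -0.36. So the passing falls in SMCs and fibroblasts are not shown to differ from the endothelial values. Macrophages minus SMCs gave 0.88 for Klf2 (95% interval 0.51 to 1.25, adjusted p = 0.0302) and 0.60 for Klf4 (0.34 to 0.86, adjusted p = 0.0317), where 4.8% of genes passed. Neither call held when any 1 library was left out or with equal cluster shares (Klf2 0.52, adjusted p = 0.183, and Klf4 0.45, adjusted p = 0.157). Macrophages minus fibroblasts gave 1.18 for Klf2 (adjusted p = 0.0944) and 0.92 for Klf4 (adjusted p = 0.108), neither past the threshold, where 0.0422% of genes were. The contrasts of macrophages with SMCs and with fibroblasts were added after the data were seen.

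The other members gave fewer calls outside ECs. In fibroblasts Ddah2 was at 1.70 and 1.57 against 0.916, 1.09 and 1.04 CP10K, a fall by 0.67 ± 0.14 (SE, adjusted p = 0.0204). Edn1 in fibroblasts rested on 10 and 9 UMIs against 11, 17 and 9, at 0.295 and 0.224 against 0.0563, 0.101 and 0.0554 CP10K (log2 difference -1.37 ± 0.30, adjusted p = 0.0262). Both calls were lost with equal cluster shares (adjusted p = 0.12 and 0.0616) and when any 1 of the 3 labelled replicates was left out. The summed endothelial markers in fibroblasts ran at 1.84 and 1.5 against 1.36, 1.21 and 1.35 CP10K.

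Gch1 was higher in labelled macrophages, at 0.743 and 0.881 against 1.04, 1.06 and 1.01 CP10K (log2 difference 0.34 ± 0.096, adjusted p = 0.0242), and in labelled SMCs, at 0.0522 and 0.0388 against 0.0686, 0.0704 and 0.0841 (0.38 ± 0.10, adjusted p = 0.033). The groups overlapped in neither type. With equal cluster shares neither rise passed (0.21, adjusted p = 0.23, and 0.22, adjusted p = 0.271). Macrophage markers summed in SMCs rose alongside, from 0.259 and 0.237 to 0.545, 0.675 and 0.614 CP10K, and their part in the SMC value was not tested. Nostrin in macrophages was at 0.204 and 0.208 against 0.350, 0.289 and 0.237 CP10K, which did not overlap but missed the threshold (0.41, adjusted p = 0.0903).

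Cav1 did not pass in any single cell type. In SMCs it was at 3.97 and 3.64 against 3.95, 3.97 and 4.14 CP10K (0.08, adjusted p = 0.386), and in fibroblasts at 0.799 and 0.831 against 1.12, 1.13 and 1.5 (0.57, adjusted p = 0.0811). In macrophages it rested on 21 and 16 UMIs against 19, 15 and 34, at 0.107 and 0.0965 against 0.0416, 0.0348 and 0.0811 CP10K (-0.59, adjusted p = 0.0567). The groups did not overlap in macrophages or fibroblasts. In monocytes, dendritic cells and NK/T cells, where 3.58%, 1.62% and 1.72% of genes passed, none of the 6, 5 and 4 members tested passed in limma (1, 0 and 0 at an unadjusted p under 0.05, and 0 in each by limma-voom). Monocyte Klf2 ranged from 1.14 to 4.24 CP10K over the libraries with the groups overlapping, and NK/T Klf2 from 7.49 to 13.4.

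The remaining genes of the pathway were read from lists that did not include the members. Of 19 genes for flow sensing and the MEK5-ERK5-MEF2 route, all 19 were tested in ECs and none passed, at a median log2 difference of 0.00 beside -0.01 over all genes. At an unadjusted p under 0.05 limma counted 7 of the 19, where 11.8% of all genes did so, and limma-voom on summed UMIs passed 4. Over all 9430 genes tested in ECs limma-voom passed 437, which is the background for its counts in the other lists as well. Among 9 tested genes of tetrahydrobiopterin and arginine supply none passed either (0 at an unadjusted p under 0.05 and 0 by limma-voom), with Ass1, which makes argininosuccinate, the precursor of arginine, at a mean of 1.59 CP10K in each group. Of the endothelin system 2 genes were tested and none passed in limma (1 at an unadjusted p under 0.05 and 1 by limma-voom), Ece1, the enzyme that cuts endothelin to its active form, being at 7.74 against 8.29 CP10K.

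Single genes passed in other lists in ECs, where 2.94% of all genes passed and 11.8% were at an unadjusted p under 0.05. Of the partners of the synthases 4 were at an unadjusted p under 0.05 and 3 passed by limma-voom, and of the cyclic GMP genes 2 and 3. Of 13 partners of the synthases tested, Dynll1, a dynein light chain, rose from 10.1 and 10.6 to 16.1, 16.0 and 15.7 CP10K in ECs (log2 difference 0.62, adjusted p = 6.52e-08). Of 4 cyclic GMP genes tested, Pde3a, a phosphodiesterase inhibited by cyclic GMP, fell by 0.44, from 2.79 and 3.18 to 2.35, 2.05 and 2.15 (adjusted p = 0.0295). The groups did not overlap for either gene. The Dynll1 rise passed with equal subset shares and the Pde3a fall did not.

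Of 18 tested genes raised by laminar flow or KLF2, 1 rose and 2 fell, with a median of -0.19, beside 2.94% of all genes past the threshold and a median of -0.01 over all genes. At an unadjusted p under 0.05 limma counted 8 of the 18 (11.8% of all genes), and limma-voom passed 6. Klk10, a secreted peptidase, was at 3.44 and 2.83 against 2.17, 2.14 and 1.68 CP10K (-0.64, adjusted p = 0.00084). Timp3, a metalloproteinase inhibitor, was at 14.4 and 18.2 against 12.5, 14.2 and 13.1 (-0.29, adjusted p = 0.0428), while Slc9a3r2, a scaffold protein, went up from 4.21 and 3.98 to 5.90, 5.33 and 5.25 (0.42, adjusted p = 0.00745). With equal subset shares Slc9a3r2 passed and Klk10 (-0.40, adjusted p = 0.22) and Timp3 did not.

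Of 14 genes tested among those raised by disturbed flow, 1 rose and 1 fell, with a median of -0.12. At an unadjusted p under 0.05 there were 7 of the 14 in limma, against 11.8% of all genes, and 7 passed by limma-voom. Ccl2, a monocyte chemokine, rose from 0.330 and 0.159 to 0.653, 0.948 and 0.937 CP10K in ECs (log2 difference 1.65, adjusted p = 3.72e-07). Cyr61, a matrix-associated signalling protein, was at 23.9 and 20.5 against 18.0, 16.1 and 17.7 (-0.36, adjusted p = 0.00147). The Ccl2 rise sat with the Mmp3/Col1a1 subset, of which it was a leading gene, and at equal subset shares Ccl2 stood at 0.03 (adjusted p = 0.99). Cyr61 also did not pass at equal shares.

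The immediate early and dissociation genes were followed because Klf2 and Klf4 are also known to respond quickly to stress on a cell. In ECs 18 were tested, 2 rose and 9 fell, with a median log2 difference of -0.30, where 2.94% of all genes passed (0.891% lower) and the median over all genes was -0.01. In limma 15 of the 18 were at an unadjusted p under 0.05, against 11.8% of all genes, and 11 passed by limma-voom. Their summed level was 235 and 233 against 209, 210 and 211 CP10K. The 4 with the largest differences were Hspa8, a heat shock chaperone (12.2 and 10.9 against 17.9, 19.7 and 19.8 CP10K, log2 difference 0.72), Zfp36, an RNA-destabilising protein (16.3 and 15.1 against 11.3, 10.7 and 10.8, -0.52), Nr4a1, a nuclear receptor (4.33 and 5.29 against 3.43, 3.43 and 3.18, -0.51), and Atf3, a stress-induced transcription factor (6.65 and 7.28 against 5.07, 5.23 and 5.51, -0.40). Their groups did not overlap. With equal subset shares Nr4a1 no longer passed and the other 3 did. The summed list was thus lower in every labelled library. In the same ECs Klf2 was also lower in every labelled library without passing, and Klf4 overlapped between the groups. Any link between the list and either gene was not tested.

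**Figure D5:**
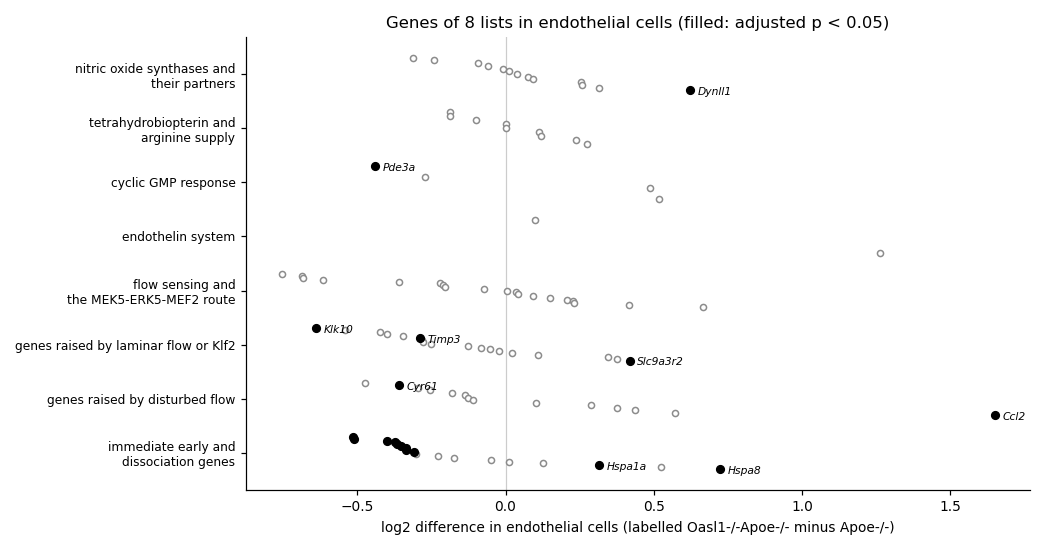
Log2 difference in ECs (labelled minus Apoe-/-) of each tested gene of the 8 pathway lists, 1 point per gene (spread vertically for view only), with genes past the threshold filled and, apart from the 9 immediate early genes that fell, named. The flow sensing, tetrahydrobiopterin and endothelin lists hold no filled point, and Ccl2 (1.65) lies farthest from 0 among those that passed.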

How the data were processed

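The 5 libraries were prepared by the authors with the 10x Genomics 3′ chemistry, mapped to mm10 with Cell Ranger 3.1.0 and filtered in Seurat 4.0.3 on genes and mitochondrial share. Doublets had been taken out with DoubletFinder and were not called again. Each deposited value is a natural log, ln(1 + x), of x UMIs per 10000 UMIs of its cell (Seurat LogNormalize), neither scaled nor integrated. CP10K was obtained by undoing the log, and UMIs by dividing by the smallest value of the cell. Whether counting used strand is not given in the sources used here. Genes seen in very few cells of a library appear to have been set to 0 there before deposit.

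Cell types were rebuilt with scanpy 1.11.5 and leidenalg 0.10.2: 2000 variable genes in 20 bins without the members, 12 components, 20 neighbours, Leiden resolution 1 and seed 1. A cluster was named when at least 3 fixed markers were at least 2-fold above the others (offset 0.1 CP10K) and in at least 10% of its cells. ECs were clustered again with 6 components at resolution 0.5, a detail set after the data were seen. Cells whose sub-clusters were named from other types were then taken out, and the rest were clustered anew into the subsets. Taken out were the 119 mixed endothelial cells and the 28 lymphatic ECs. The main EC results leave them out. Since the names were rebuilt, they can differ from those of the study. Types with under 20 cells in a library were not tested.

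The library was the replicate. log2(mean CP10K + 0.05) was fitted with limma (lmFit and trended eBayes) where a gene averaged at least 0.05 CP10K, the 2 Apoe-/- against the 3 labelled libraries, with Benjamini-Hochberg adjustment over all genes tested and a threshold of 0.05. Interactions were fitted on the difference of log2 levels between types. A fold change on this scale understates the change of low genes. On simulated counts for ECs, 56.1% of genes changed 2-fold upward, 41.7% of those lowered to 0.5 and 0.0762% of unchanged genes passed. Counting intervals cover counting error only. The members and lists were chosen with earlier results of these data known. All members were named, and of each list every gene that passed in ECs, or the 4 with the largest difference. Alternatives were the pseudocount, the filter, scaling, limma-voom, log means, a replicate block, leaving out each library, a marker gate, equal subset or cluster shares and parts of the ECs; 5 were added after the data were seen. Promoter windows and genes came from RefSeq and GENCODE on GRCm38. A few genes that these rules would name are not reported here.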

Additional observations from a re-analysis of the deposited data

Results flagged for a closer look

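For 2 genes the difference between the groups itself differed between cell types by an interaction test. The Klf2 difference was 0.88 larger on the log2 scale in macrophages than in SMCs, and the Klf4 difference 0.60 larger. Klf2 rose in macrophages (0.49) and fell by 0.39 in SMCs, and Klf4 rose by 0.34 and fell by 0.26. This contrast was chosen after the data were seen. Both calls were lost when any 1 library was left out and when every library was given equal cluster shares (adjusted p = 0.183 for Klf2 and 0.157 for Klf4, limma). With equal cluster shares the rises in macrophages were 0.12 for Klf2 (adjusted p = 0.488) and 0.13 for Klf4 (adjusted p = 0.428).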

How the results depend on the processing

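Of the genes tested in ECs, 277 passed. The count was 147 without the filter on low values, 437 by limma-voom, 152 with equal subset shares, 35 in the aortic subset alone and 177 to 237 with 1 library left out, lowest without Apoe-/- replicate 2. The whole-aorta count of 4045 was 1060 with equal cell type shares. Of the genes that passed in ECs 69.7% were higher, against 82.1% when the means of the deposited log values were fitted. The cause of these shifts was not tested. Endothelial Nos3, Klf2 and Klf4 did not pass under any alternative, and the sign of their small differences turned in some. On the log2 scale the values were 0.13 (Nos3), 0.014 (Klf2), 0.10 (Klf4) and 0.11 (Cav1) with equal subset shares, and 0.38 (Nos3), 0.13 (Klf4), 0.11 (Cav1), 0.44 (Ddah2) and 0.015 (Timp3) in the aortic subset alone. Without the Mmp3/Col1a1 subset they were 0.048 (Nos3), 0.069 (Klf4) and 0.022 (Cav1). In means of the deposited log values, a natural log scale, they were 0.021 (Nos3), 0.0043 (Klf2), 0.059 (Klf4) and 0.018 (Ddah2) in ECs, 0.00096 for Ddah2 in SMCs and -0.0046 for nostrin in fibroblasts. Cav1 in the whole aorta was at 0.040 with equal cell type shares. By limma-voom nostrin in fibroblasts was at -0.31, and monocyte Klf2 and Klf4 at -0.11 and -0.15. Dendritic cell Klf2 was at -0.0099 with median ratio scaling. Shares of ECs with a UMI, unthinned, differed by 5.18 (Nos3), 1.95 (Klf2), 5.99 (Klf4) and 2.06 (Cav1) percentage points upward.

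With 1 library left out, the endothelial differences ran from -0.083 to 0.047 for Klf4, -0.12 to 0.021 for Cav1 and -0.37 to 0.24 for Ddah2. In SMCs Ddah2 ran from -0.054 to 0.050, and in fibroblasts nostrin from -0.58 to 0.37. In monocytes Klf2 ran from -0.69 to 1.16, Klf4 from -0.13 to 0.21 and Edn1 from -0.39 to 1.58. In dendritic cells nostrin ran from -0.52 to 0.16, Klf2 from -0.41 to 0.53 and Gch1 from -0.42 to 0.039, and in NK/T cells Gch1 ran from -0.51 to 0.14 and Cav1 from -0.455 to 0.13. These members had no call to lose. The interaction of macrophages with SMCs ran from 0.73 to 1.03 for Klf2 and from 0.56 to 0.64 for Klf4, with no call left.

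The replicate numbers are shared by 2 libraries a group, and same-numbered libraries did not deviate together (correlations from -0.056 to 0.043), so the libraries were not treated as paired. With a replicate block endothelial Klf4 was at 0.0066, the whole-aorta count at 3017 and the endothelial count at 290. The block ended the calls of Pde3a in ECs, Gch1 in SMCs and Edn1 in fibroblasts, and gave calls to Cav1 and nostrin in macrophages and Gch1 in fibroblasts. The low counts of nostrin and Gch1 limit what can be seen of them in ECs.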
